A study of Mus musculus with 18 samples.

Results

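Odc1, Amd1, Srm, Sms, Sat1, Oaz1, Oaz2 and Azin1 encode the main enzymes of polyamine synthesis in the mouse, the enzyme that starts polyamine breakdown and export, and the antizyme system that sets the amount of ornithine decarboxylase. They were taken by gene symbol from the deposited tables, 1 merged row for each gene, and are 8 of the 15307 features with reads. All 8 passed the filter on low counts in both assays. The cells were GTML, a line grown from a mouse medulloblastoma in which a human MYCN transgene is overexpressed; in this model the transgene is switched on through the Glt1 promoter. Every group carried that transgene, and library names give the line as GTML5. Cells received DMSO, the solvent, as the control, Rapalink-1 at 50 nM or rapamycin at 5 nM, each for 3 h. Both compounds inhibit the mTOR kinase: rapamycin acts on mTOR complex 1 from outside the active site, and Rapalink-1 joins a rapamycin-like part to an inhibitor of the active site. The 2 doses differ, so a difference between the compounds is not one at matched dose.

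Polyamines (putrescine, spermidine and spermine) are small positively charged molecules that bind RNA and support translation and cell growth. Ornithine decarboxylase, from Odc1, makes putrescine and is the first committed step of synthesis, and its gene is a known target of MYC proteins. S-adenosylmethionine decarboxylase, from Amd1, makes the aminopropyl donor, which spermidine synthase (Srm) and spermine synthase (Sms) use to build the longer polyamines. Spermidine/spermine acetyltransferase (Sat1) acetylates polyamines for export or breakdown. Antizymes, from Oaz1 and Oaz2, bind ornithine decarboxylase, send it to the proteasome and block polyamine uptake, and their full-length protein is made only when ribosomes shift frame at high polyamine levels. Antizyme inhibitor (Azin1) resembles ornithine decarboxylase, has no such activity, and binds antizyme in its place. The Amd1 messenger is known for a short upstream reading frame through which polyamines repress its translation.

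The first bases of a messenger matter for mTOR, because messengers that start with a cytidine followed by a run of pyrimidines (5′ terminal oligopyrimidine, or TOP, messengers) are known to depend on it for translation. The set of promoter windows used here (GRCm38.p6) gave annotated starts for 6 of the 8 genes, 7 starts in all. Srm and Azin1 had no start in that set, although RefSeq gives positions for both genes. The windows of 30 bases below run from 15 bases before the annotated start to the 15th base of the messenger, on the transcribed strand, with runs of at least 6 C or T in a row in capitals. Odc1 is shown because its footprints changed most of the 8, and Oaz1 and Sat1 because theirs fell little and rose.
Odc1, chr12:17544858-17544887, plus strand: ccgCCCCTCCCCCgcgCCTCCCggccggaa
Oaz1, chr10:80826641-80826670, plus strand: cgtgacgacgcatataaaagtgggcgtcgg
Sat1, chrX:155216435-155216464, minus strand: tggaacagagggcggtgcttcggcgggctt
The Odc1 window held a run of 10 pyrimidines, which lies before the annotated start, and one of 6 within the messenger. The first base at that start is g, so the annotated messenger does not begin with the cytidine of a TOP messenger. The RefSeq gene begins further upstream, so the first base of the messenger in these cells is not fixed by the annotation. The Oaz1 and Sat1 windows had none longer than 4. One of the Sms starts had a run of 6, also before the start, and the Amd1 and Oaz2 windows had none of 6. Such a run lies in 29.2% of the 32851 mouse starts in the set and in 40 of 76 starts (52.6%) of ribosomal protein genes. Runs were counted whatever the first base of the messenger. The stretch of the Amd1 messenger that holds the start of its upstream reading frame is also shown, with the frame from its ATG to its stop codon in capitals.
Amd1, chr10:40302155-40302184, minus strand: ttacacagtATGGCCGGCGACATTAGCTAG
The ATG is at base 14 of the messenger and 6 codons precede the stop. An ATG with a stop in the same frame within the first 50 bases occurs in 11.7% of starts. The files hold 1 count per gene, so footprints on this short frame were not separated from those on the enzyme's own frame.

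The series holds 18 libraries, 9 of total RNA and 9 of ribosome footprints, the fragments of messenger that ribosomes protect, with 3 of each kind for each treatment. RNA and footprints came from the same lysate, and libraries held 6788365 to 13300292 RNA reads and 7692625 to 14150068 footprint reads. The labels do not say that replicates were separate cultures, so p-values measure the spread between these samples, which may be technical. In the labels the footprint libraries of DMSO and Rapalink-1 carry a letter B that those of rapamycin lack. The library names also end in a running number, in which all rapamycin libraries, RNA included, come after those of DMSO and Rapalink-1. The meaning of the letter and of the number is not given in the sources used here. Neither can be told apart from rapamycin treatment. Of 8 markers of neural progenitors and medulloblastoma cells, 5 were matched by symbol (Nes, Zic1, Zic2, Slc1a3 and Mycn). Marker levels are counts per 1000000 reads (CPM) of the library total, without the scaling used below. The summed RNA level was 947 to 986 CPM with DMSO, 861 to 927 with Rapalink-1 and 843 to 853 with rapamycin, every treated library being below every DMSO library. Their summed footprints were 844 to 904 CPM with DMSO, 1303 to 1312 with Rapalink-1 and 858 to 874 with rapamycin. On library totals the median gene also changed with Rapalink-1 against DMSO, by -0.13 in RNA and 0.28 in footprints on the log2 scale. The Rapalink-1 marker shifts are therefore not free of the scaling. Of 22 markers of other brain and blood cells, 2 were matched by symbol, Itgam and Snap25. Only 9787 of the 15307 features had a symbol, so a marker without a match may still have had reads. The microglial marker Itgam had footprints at 24.2 to 25.5 CPM with Rapalink-1 and 51.0 to 76.3 with DMSO, while its RNA, 73.1 to 86.9 and 79.1 to 115, overlapped. The part of these shifts in the results below was not tested. In bulk libraries fewer cells of a type and less RNA per cell cannot be told apart.

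Apart from the marker levels, values per library are CPM scaled by the trimmed mean of M-values (TMM), which sets the typical gene to no change. No added standard is recorded, so each change is relative to the other genes. A change was called at an adjusted p below 0.05 in edgeR's quasi-likelihood test over all genes, and changes are given as log2 differences ± SE with 3 libraries a group. Translational efficiency is the footprint change minus the RNA change, tested as the interaction of assay and treatment. With Rapalink-1 against DMSO, 5 of the 8 genes were called in RNA, 1 higher and 4 lower, where 38.2% of all genes were called, 19.4% higher and 18.8% lower. In footprints 6 were called, 1 higher and 5 lower, against 53.7% of all genes, 25.7% higher and 28% lower. In translational efficiency 6 were called, 3 in each direction, against 42.2% of all genes, 22.3% higher and 19.9% lower. The share of the 8 genes that was called was above that of all genes in each measure. This was not tested, and the genes were chosen with earlier results of these data known, so it says nothing about the set. Scaling by library totals instead of TMM, which shifts the typical gene, changed these splits to 0 higher and 7 lower in RNA, 2 and 4 in footprints, and 5 and 2 in translational efficiency. The median change of the 8 was -0.18 in RNA, -0.38 in footprints and 0.07 in translational efficiency, and over all genes tested 0.00, 0.01 and 0.06.

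**Figure D1:**
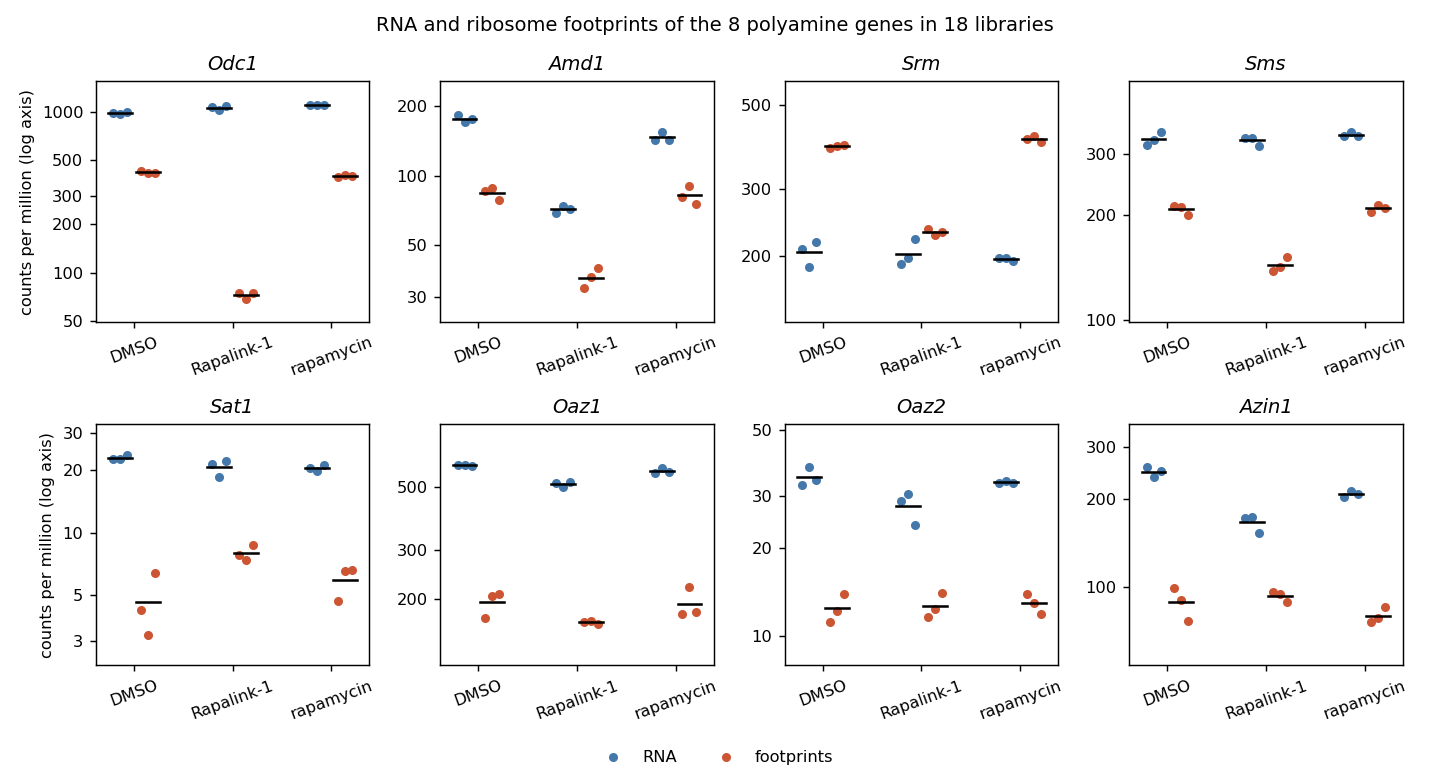
TMM-scaled CPM (log axis) of each of the 8 genes in every library, RNA in blue and footprints in orange, with a bar at the mean of each group of 3. The Odc1 footprints with Rapalink-1 lie between 69.2 and 75.5, and its RNA in every library lies between 962 and 1105.

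Ornithine decarboxylase showed a loss of footprints with Rapalink-1 and no loss of messenger. Odc1 RNA was 986, 962 and 992 CPM with DMSO and 1069, 1026 and 1082 with Rapalink-1. Odc1 footprints were 426, 419 and 416 with DMSO and 74.6, 69.2 and 75.5 with Rapalink-1. The 3 Rapalink-1 libraries thus had more RNA and far fewer footprints than each DMSO library, with no overlap in either assay. Footprints fell by 2.52 ± 0.06 on the log2 scale, to 0.174 of the DMSO level (adjusted p = 5.5e-32). RNA rose by 0.11 ± 0.04 (adjusted p = 0.021), but its direction turned to -0.03 under scaling by library totals and its call was lost without Rapalink-1 replicate 1 (adjusted p = 0.081) or replicate 3 (adjusted p = 0.088), and in a fit of these treatments alone (adjusted p = 0.057). Translational efficiency fell by 2.59 ± 0.07 (adjusted p = 1.8e-37), and 0.373% of all genes had a lower value. Odc1 lies at chromosome 12, 17544808 to 17551502 (GRCm38.p6).

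With rapamycin the Odc1 footprints were close to the DMSO level. Odc1 RNA was 1103, 1093 and 1105 CPM, above every DMSO library, and rose by 0.17 ± 0.04 (adjusted p = 0.0013). Its footprints were 396, 403 and 399, below every DMSO library, with a change of -0.07 ± 0.05 that was not called (adjusted p = 0.36, 95% interval -0.18 to 0.03). Translational efficiency fell by 0.24 ± 0.06 (adjusted p = 0.0061), with 22.4% of genes lower. Between the compounds, Odc1 footprints were lower with Rapalink-1 (log2 change -2.45 ± 0.06, adjusted p = 3.1e-31).

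Amd1 moved in the other measure: its messenger fell with Rapalink-1. Amd1 RNA was 184, 171 and 176 CPM with DMSO, 69.1, 74.4 and 72.1 with Rapalink-1 and 143, 155 and 143 with rapamycin. Its footprints were 86.0, 88.7 and 78.9 with DMSO, 32.6, 36.4 and 39.8 with Rapalink-1 and 81.3, 90.5 and 75.4 with rapamycin. Every Rapalink-1 library was below every other library in both assays, while the footprints of DMSO and rapamycin overlapped. With Rapalink-1, RNA fell by 1.30 ± 0.06 (adjusted p = 1.2e-22), a change with 0.293% of genes lower, and footprints fell by 1.23 ± 0.08 (adjusted p = 5.4e-16). The change in translational efficiency was 0.12 ± 0.10 (adjusted p = 0.38, 95% interval -0.09 to 0.32), and 0.48 under library totals (adjusted p = 6.6e-05). With rapamycin, RNA fell by 0.27 ± 0.06 (adjusted p = 0.00026), and the footprint change was -0.04 ± 0.08 (adjusted p = 0.79). Amd1 (chromosome 10, 40287458 to 40302188) has a near-identical copy, Amd2 (chromosome 10, 35708691 to 35711891), whose reads came to 97.4% to 101% of those of Amd1 in each library. Reads of the pair cannot be told apart here, so the values describe both together.

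The synthases that act after them, Srm and Sms, lost footprints with Rapalink-1. Srm RNA was 208, 187 and 218 CPM with DMSO and 190, 197 and 221 with Rapalink-1, groups that overlap. Srm footprints were 384, 391 and 392 with DMSO and 235, 227 and 232 with Rapalink-1, so that every treated library was lower. Footprints fell by 0.75 ± 0.05 (adjusted p = 8.6e-16) and translational efficiency fell by 0.70 ± 0.08 (adjusted p = 8.8e-11), and the RNA change was -0.01 ± 0.06 (adjusted p = 0.91, 95% interval -0.12 to 0.10). Under library totals the footprint change was -0.48, the efficiency change -0.33 (adjusted p = 0.00033) and the RNA change -0.15, which was then called (adjusted p = 0.033). Srm, at chromosome 4, 148591513 to 148594619, makes spermidine.

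Sms RNA was 318, 329 and 347 CPM with DMSO and 334, 334 and 315 with Rapalink-1, again with overlap. Its footprints were 213, 211 and 201 with DMSO and 138, 142 and 152 with Rapalink-1, with none of the treated libraries reaching the controls. Footprints fell by 0.53 ± 0.06 (adjusted p = 2e-10), and the RNA change was -0.01 ± 0.05 (adjusted p = 0.85). Under library totals the footprint change was -0.26 (adjusted p = 0.00023) and the RNA change -0.15, which was then called (adjusted p = 0.0068). Translational efficiency fell by 0.48 ± 0.07 (adjusted p = 3.5e-07), a call that was lost under scaling by library totals (-0.11, adjusted p = 0.21). Sms lies at chromosome X, 157443851 to 157492287. With rapamycin neither synthase was called in any measure. Srm footprints were then 408, 413 and 401 and Sms footprints 205, 214 and 210.

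**Figure D2:**
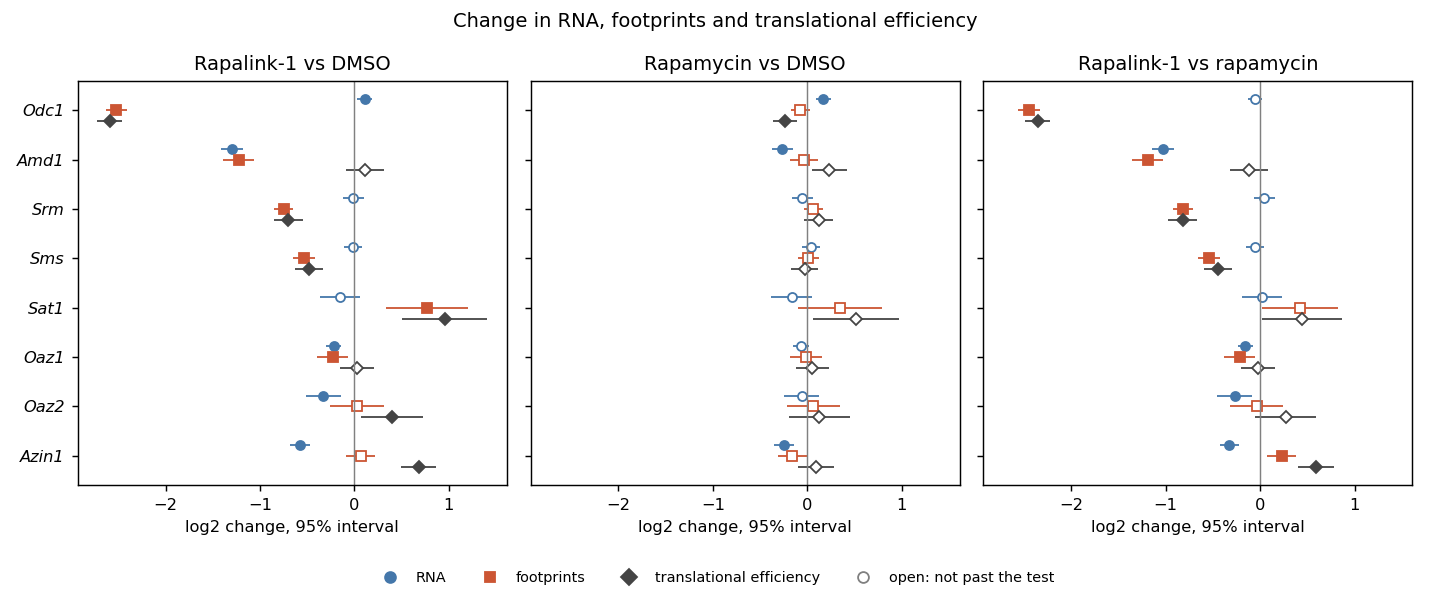
Log2 changes with 95% intervals of RNA, footprints and translational efficiency for each of the 8 genes, for each compound against DMSO and for Rapalink-1 against rapamycin, with open symbols where the change was not called. Against DMSO, the Odc1 footprint change is -2.52 with Rapalink-1 and -0.07 with rapamycin, and the Amd1 RNA change is -1.30 and -0.27.

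Sat1, the acetyltransferase, went the other way in footprints, from few reads. Its footprints were 4.23, 3.22 and 6.40 CPM with DMSO, 7.83, 7.39 and 8.67 with Rapalink-1 and 4.69, 6.53 and 6.63 with rapamycin, from 23 to 97 reads a library. Every Rapalink-1 library was above every other one, and the rapamycin and DMSO libraries overlapped. Its RNA was 22.4, 22.7 and 23.7 with DMSO and 21.4, 18.4 and 22.0 with Rapalink-1. Footprints rose by 0.77 ± 0.21 with Rapalink-1 (adjusted p = 0.0026), and translational efficiency rose by 0.96 ± 0.22 (adjusted p = 0.00042), with 97.0% of all genes lower. The RNA change was -0.15 ± 0.11 (adjusted p = 0.28), called under library totals (-0.29, adjusted p = 0.025). With rapamycin the Sat1 efficiency change was 0.51 ± 0.23 (adjusted p = 0.12), which was called without DMSO replicate 3 (0.77, adjusted p = 0.022). The test between the compounds gave 0.44 ± 0.21 for efficiency (adjusted p = 0.076) and 0.42 ± 0.20 for footprints (adjusted p = 0.075). Both were called higher with Rapalink-1 under library totals, efficiency by 0.77 (adjusted p = 0.0015) and footprints by 0.64 (adjusted p = 0.0058). Sat1 lies at chromosome X, 155213126 to 155216449.

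The antizyme messengers fell modestly in RNA with Rapalink-1. Oaz1 RNA was 599, 600 and 597 CPM with DMSO, 518, 500 and 524 with Rapalink-1 and 563, 587 and 568 with rapamycin, 3 groups without overlap. It fell by 0.22 ± 0.04 with Rapalink-1 (adjusted p = 3.3e-05; -0.36 under library totals) and changed by -0.06 ± 0.04 with rapamycin (adjusted p = 0.28). Oaz1 footprints were 171, 205 and 208 with DMSO, 166, 168 and 163 with Rapalink-1 and 177, 221 and 180 with rapamycin. They fell by 0.23 ± 0.08 with Rapalink-1 (adjusted p = 0.019), but the direction turned to 0.04 under library totals. The call was lost without DMSO replicate 2 (adjusted p = 0.084), DMSO replicate 3 (adjusted p = 0.11) or Rapalink-1 replicate 3 (adjusted p = 0.063). The change in Oaz1 translational efficiency was 0.03 ± 0.09 (adjusted p = 0.81, 95% interval -0.15 to 0.21), and 0.40 under library totals (adjusted p = 5.7e-05). Oaz1 lies at chromosome 10, 80826656 to 80829290.

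Oaz2 was read at a lower count, 87 to 172 footprints a library. Its RNA was 32.6, 37.4 and 33.9 CPM with DMSO and 28.7, 30.3 and 23.9 with Rapalink-1, every treated library being lower. RNA fell by 0.33 ± 0.09 (adjusted p = 0.0043), a call lost without Rapalink-1 replicate 3 (-0.24, adjusted p = 0.062). Its footprints, 11.2, 12.2 and 14.0 with DMSO and 11.6, 12.4 and 14.0 with Rapalink-1, overlapped almost wholly. Translational efficiency rose by 0.40 ± 0.16 (adjusted p = 0.048), a call lost under 9 of its 15 alternatives, with the replicate block among them (0.39, adjusted p = 0.053), while library totals gave 0.76. Oaz2 lies at chromosome 9, 65676548 to 65690300.

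Azin1, the antizyme inhibitor, had less messenger with Rapalink-1 and as many footprints. Azin1 RNA was 256, 237 and 248 CPM with DMSO, 172, 173 and 153 with Rapalink-1 and 203, 213 and 207 with rapamycin, 3 groups without overlap. Its footprints were 99.5, 90.7 and 76.5 with DMSO, 96.1, 95.1 and 88.9 with Rapalink-1 and 75.8, 78.3 and 85.3 with rapamycin. RNA fell by 0.57 ± 0.05 with Rapalink-1 (adjusted p = 3.5e-12) and by 0.25 ± 0.05 with rapamycin (adjusted p = 0.00031). The footprint change with Rapalink-1 was 0.07 ± 0.08 (adjusted p = 0.47, 95% interval -0.09 to 0.22), and was called higher under library totals (0.34, adjusted p = 0.00034). Translational efficiency rose by 0.68 ± 0.09 (adjusted p = 3.8e-08), with 90.2% of genes lower, and was 1.05 under library totals. Between the compounds it was also higher with Rapalink-1, by 0.59 ± 0.09 (adjusted p = 5.5e-07). Azin1 lies at chromosome 15, 38487430 to 38519294.

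**Figure D3:**
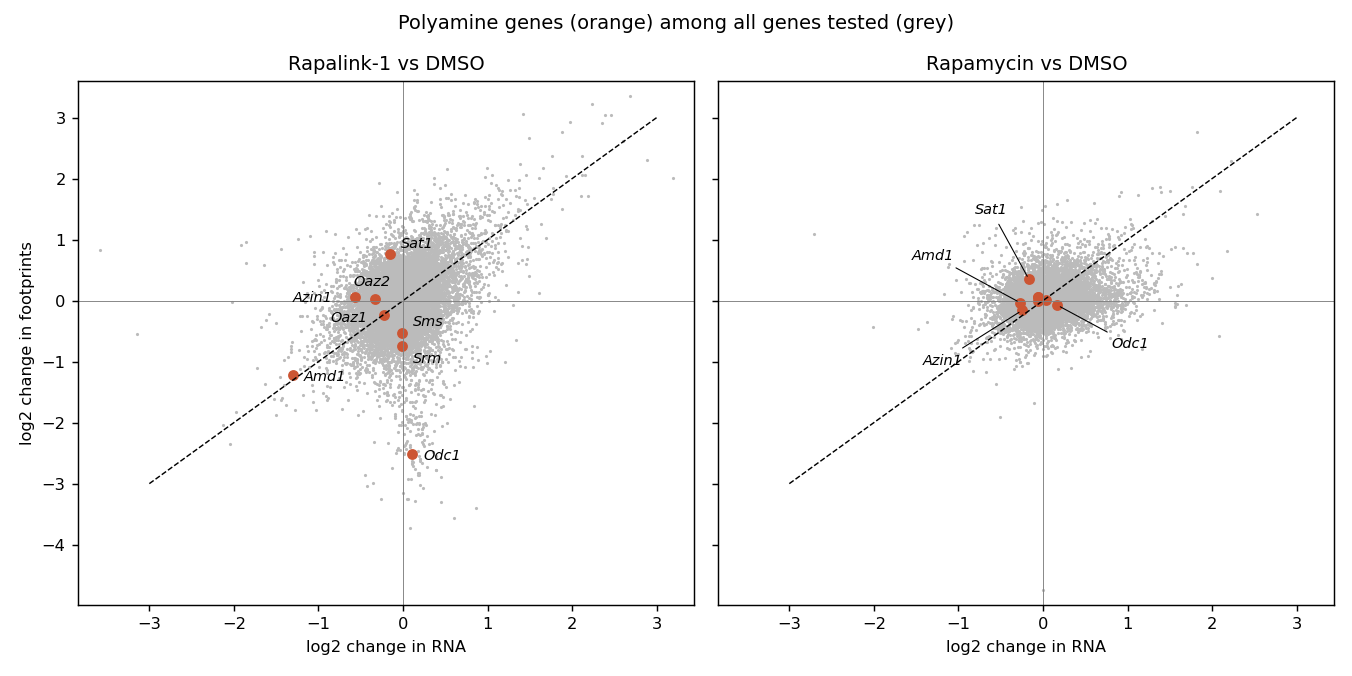
Log2 change of RNA against log2 change of footprints for the 8 genes, with all genes tested in both assays as grey points, for Rapalink-1 and for rapamycin against DMSO, and a dashed line of equal change. With Rapalink-1, Odc1 stands at an RNA change of 0.11 and a footprint change of -2.52, and Amd1 at -1.30 and -1.23.

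With rapamycin against DMSO, 3 of the 8 genes were called in RNA, Odc1 higher and Amd1 and Azin1 lower, where 24.1% of all genes were called, 13.6% higher and 10.5% lower. In footprints 0 of 8 were called by edgeR against 18.1% of all genes (8.75% higher and 9.4% lower), with 1 of 8 at an unadjusted p below 0.05 and 0 called by DESeq2. That gene was Azin1 (-0.16 ± 0.08, adjusted p = 0.14), which was called without DMSO replicate 3 (-0.26, adjusted p = 0.0099). In translational efficiency 1 was called, Odc1, against 16.4% of all genes, 6.52% higher and 9.85% lower. That count became 2 without DMSO replicate 2, when Amd1 was added (0.29, adjusted p = 0.047), and 2 without DMSO replicate 3, when Sat1 was added. The comparisons with DMSO share its libraries, so the 2 compounds' values stand side by side and are not independent.

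The direct test of Rapalink-1 against rapamycin called 4 of the 8 genes in RNA, all lower with Rapalink-1, where 41.1% of all genes were called, 19.6% higher and 21.5% lower. These were Amd1 (-1.03 ± 0.06, adjusted p = 6e-19), Azin1 (-0.32 ± 0.05, adjusted p = 2e-06), Oaz1 and Oaz2. In footprints 6 were called against 53.1% of all genes (25.4% higher and 27.6% lower), with Odc1, Amd1, Srm, Sms and Oaz1 lower and Azin1 higher. Srm footprints had a log2 change of -0.82 ± 0.05 (adjusted p = 6.9e-17) and Sms footprints had a log2 change of -0.54 ± 0.06 (adjusted p = 1.2e-10). In translational efficiency 4 were called against 50.1% of all genes (26.1% higher and 23.9% lower), with Odc1 (-2.36), Srm (-0.82) and Sms (-0.45) lower and Azin1 (0.59) higher. Under library totals that balance turned to 4 higher and 2 lower. The Sms efficiency call was lost (-0.12, adjusted p = 0.15), Sat1, Oaz1 (0.30) and Oaz2 (0.59) were called higher beside Azin1 (0.92), and Srm had -0.50. In RNA, Odc1 and Sms were then also called lower (both -0.20), Oaz1 had -0.30 and Oaz2 -0.41, and in footprints Sms had -0.32 and Azin1 0.45. Some of the smaller calls depended on single libraries. The Oaz2 RNA call was lost without Rapalink-1 replicate 3 (adjusted p = 0.16) or rapamycin replicate 2 (adjusted p = 0.054). The Azin1 footprint call was lost without Rapalink-1 replicate 1 (adjusted p = 0.053) or rapamycin replicate 1 (adjusted p = 0.066), and the Oaz1 footprint call (-0.22) was lost without rapamycin replicate 2 or any 1 of the Rapalink-1 libraries (adjusted p = 0.056 to 0.16) and turned to 0.004 under library totals.

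Footprints divided by RNA in each lysate place the genes on 1 scale, on which gene length cancels in part, since RNA reads cover untranslated regions as well. Lysates were matched by replicate number. Deviations from the group mean in RNA and footprints of a number correlated by 0.21 to 0.25 with DMSO. With Rapalink-1 the correlations were -0.13 to 0.01 and with rapamycin -0.05 to 0.06, so the match by number was not seen there. Odc1 had a ratio of 0.429 ± 0.009 (SD, n = 3) with DMSO, 0.0690 ± 0.0014 with Rapalink-1 and 0.363 ± 0.005 with rapamycin. A lower ratio was found for 8.88% of genes with DMSO and for 0.118% with Rapalink-1, so the Odc1 ratio was low among genes without treatment too. Srm stood at the other end, with 1.91 ± 0.15, 1.14 ± 0.09 and 2.07 ± 0.01, where the median gene with DMSO had 1.01. The antizyme messengers Oaz1 (0.325 ± 0.034) and Oaz2 (0.360 ± 0.045), Azin1 (0.360 ± 0.045) and Sat1 (0.200 ± 0.065) were all below that median with DMSO. So were Amd1 (0.479 ± 0.037), Sms (0.630 ± 0.047) and Odc1, and only Srm was above it. With Rapalink-1 the Azin1 ratio was 0.563 ± 0.018 and the Sat1 ratio 0.387 ± 0.019, and in both genes each Rapalink-1 lysate was above each DMSO lysate.

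**Figure D4:**
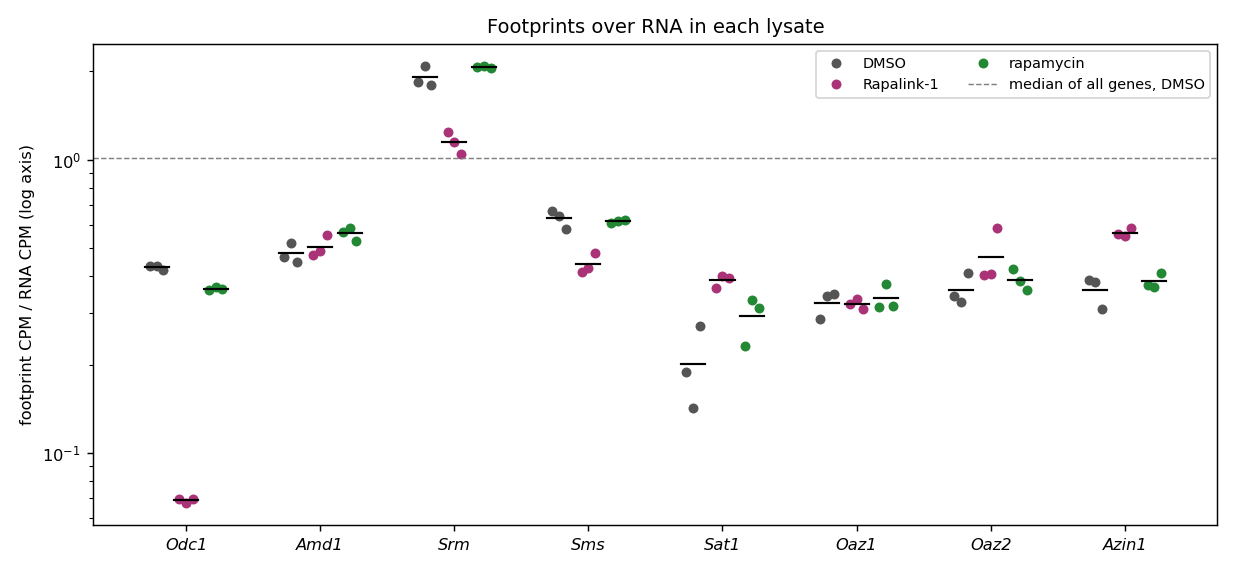
CPM of footprints divided by CPM of RNA in each lysate (log axis) for the 8 genes, coloured by treatment, with a bar at the mean of 3 and a dashed line at the median of all genes with DMSO. The Odc1 ratio is 0.0690 with Rapalink-1 against 0.429 with DMSO, and the Azin1 ratio is 0.563 against 0.360.

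Within a library, the ratio of 2 genes does not depend on how libraries are scaled, and these ratios were chosen after the values were seen. Odc1 footprints divided by Oaz1 footprints, enzyme over antizyme, were 2.49, 2.04 and 2.00 with DMSO, 0.449, 0.413 and 0.464 with Rapalink-1 and 2.23, 1.83 and 2.21 with rapamycin. In RNA the same ratio had means of 1.64, 2.06 and 1.92, higher with each compound than with DMSO. The Odc1 to Azin1 footprint ratio had means of 4.78 with DMSO, 0.784 with Rapalink-1 and 5.02 with rapamycin. These are ratios of reads over whole messengers, not of proteins, and for Oaz1 they do not say how many ribosomes shifted frame.

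The genes whose profile over all 18 libraries was nearest to that of Odc1 were found by the root mean square difference of log2 CPM from the DMSO mean, among 7018 genes with a mean log2 level of at least 4. They were Gm8973 (0.116), Rpl13 (0.119), Rplp2 (0.130) and Rpl36 (0.133), followed by a feature with no symbol (0.146), while the profile of Odc1 itself deviated by 1.03 from its DMSO mean. Rpl13, Rplp2 and Rpl36 encode proteins of the large ribosomal subunit. Amd1 was nearest to its copy Amd2 (0.014). Srm was nearest to Gsr (0.065), Sms to Psmc5 (0.059), Oaz1 to Diablo (0.069), Oaz2 to Rab10 (0.096) and Azin1 to Zfp961 (0.085). Sat1 was below the level set for this search.

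Of 27 further genes of polyamine metabolism and transport, 19 were tested and 8 were not analysed here. These 19 were tested with TMM scaling only, and their calls were not recomputed under the alternatives used for the 8 genes. Library totals moved the median gene, for Rapalink-1 against DMSO, to -0.13 in RNA, 0.28 in footprints and 0.43 in translational efficiency. Whether the smaller changes below depend on the scaling was not tested. With Rapalink-1 against DMSO, 6 of the 19 were higher and 9 lower in RNA, 2 higher and 7 lower in footprints, and 3 higher and 5 lower in translational efficiency. Over all genes 38.2% were called in RNA (19.4% higher and 18.8% lower), 53.7% in footprints (25.7% and 28%) and 42.2% in efficiency (22.3% and 19.9%). The totals in footprints and efficiency were near the background, though the footprint split, 2 higher and 7 lower, was less even. The total in RNA was above it, which was not tested, and the list was chosen with earlier results of these data known. Amd2, the copy of Amd1 that shares its reads, is among the genes lower in RNA and in footprints. The genes around S-adenosylmethionine moved in both directions. Mat2a, which makes it, fell by 0.77 ± 0.06 in RNA (adjusted p = 2.1e-15) and by 0.64 ± 0.06 in footprints (adjusted p = 1.1e-12). Mat2b, the regulatory subunit of that enzyme, rose by 0.40 ± 0.06 in RNA and by 0.71 ± 0.06 in footprints (adjusted p = 3.1e-12). Of the salvage pathway that recycles the by-product of the synthases, Mtap, its first enzyme, fell by 0.90 ± 0.07 in footprints (adjusted p = 3.2e-14). Enoph1 fell by 0.45 ± 0.07 in RNA and Mri1 rose by 0.44 ± 0.08 in RNA. Mri1 footprints were not called (-0.005 ± 0.09, adjusted p = 0.97), and its translational efficiency fell by 0.41 ± 0.12 (adjusted p = 0.0067).

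The polyamine transporters differed from each other. Atp13a2, which exports polyamines from lysosomes, rose by 0.22 ± 0.07 in RNA, fell by 0.98 ± 0.14 in footprints and fell by 1.15 ± 0.15 in translational efficiency with Rapalink-1 (adjusted p = 3.3e-09 for efficiency). Its relative Atp13a3 rose by 0.50 ± 0.09 in translational efficiency (adjusted p = 1.2e-05). Its RNA fell by 0.25 ± 0.05 (adjusted p = 0.00012) and its footprints rose by 0.21 ± 0.07 (adjusted p = 0.018). Eif5a, the translation factor whose hypusine is built from spermidine, rose by 0.33 ± 0.07 in translational efficiency (adjusted p = 7.3e-05), with a footprint change of 0.07 that was not called.

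With rapamycin, 2 of the 19 genes were higher and 5 lower in RNA, 5 higher and 2 lower in footprints, and 2 higher and 1 lower in translational efficiency. Over all genes 24.1% were called in RNA (13.6% higher and 10.5% lower), 18.1% in footprints (8.75% and 9.4%) and 16.4% in efficiency (6.52% and 9.85%). The total in efficiency was near the background. Those in RNA and footprints were above it, which was not tested. Mat2a fell by 0.30 ± 0.05 in RNA and by 0.42 ± 0.06 in footprints (adjusted p = 3.3e-07). Slc7a1, a carrier for arginine and ornithine, rose by 0.44 ± 0.08 in RNA (adjusted p = 8.9e-05) and fell by 0.51 ± 0.10 in translational efficiency (adjusted p = 0.00015). Dohh, which completes hypusine, rose by 0.47 ± 0.10 in translational efficiency (adjusted p = 0.00041). Against rapamycin, Rapalink-1 gave 6 higher and 7 lower in RNA, 1 higher and 9 lower in footprints, and 4 higher and 8 lower in translational efficiency. Over all genes 41.1% were called in RNA (19.6% higher and 21.5% lower), 53.1% in footprints (25.4% and 27.6%) and 50.1% in translational efficiency (26.1% and 23.9%). The total in footprints was near that background, but its split, 1 higher and 9 lower, was less even. The totals in RNA and translational efficiency were above the background, which was not tested. Atp13a2 had the smallest p in that last measure (-1.37).

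**Figure D5:**
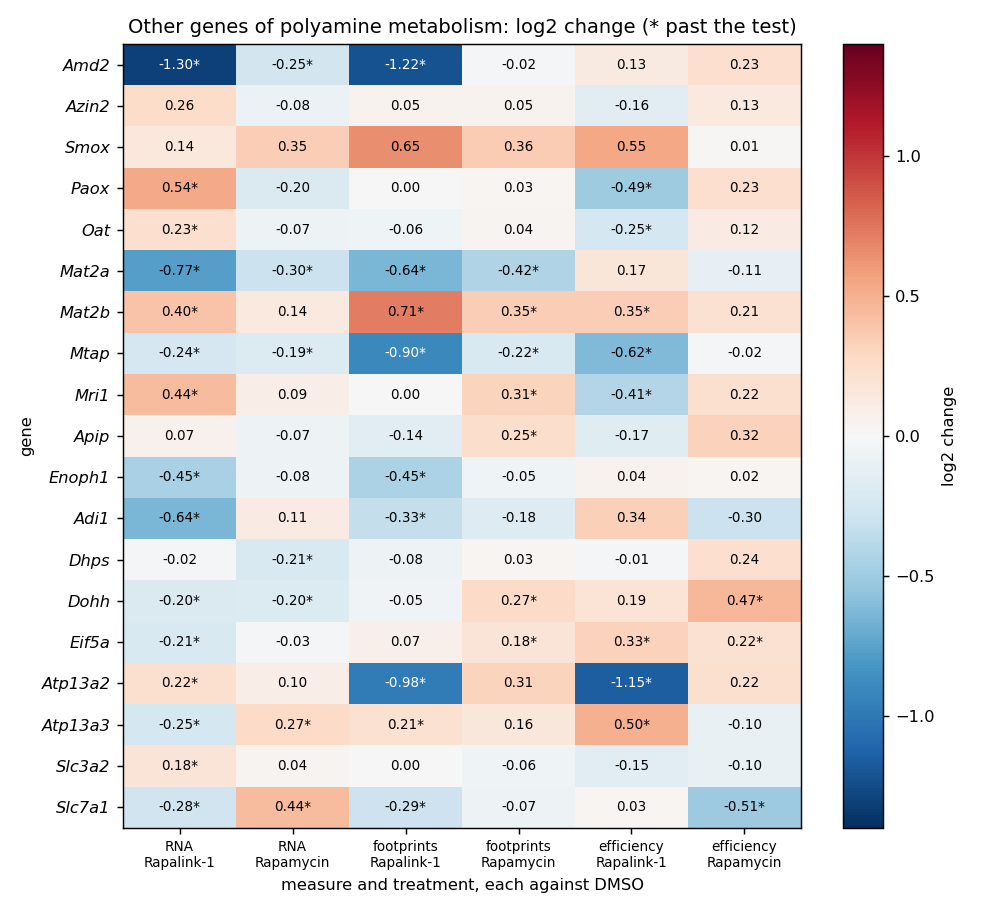
Log2 changes of the 19 other polyamine genes tested, one row a gene and one column for each measure and treatment against DMSO, with a star where the adjusted p was below 0.05. Amd2 shows -1.30 in RNA with Rapalink-1, and Atp13a2 shows -1.15 in translational efficiency.

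For each of the 8 genes, RNA, footprints and translational efficiency with each compound against DMSO can be set beside the authors' deposited table, 48 values in all. All 48 lay on the same side of the threshold as in the authors' deposited table, and the log2 changes differed by at most 0.030.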

How the data were processed

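Total RNA and ribosome footprints (ARTseq kit, per the labels' protocols) were measured in 18 libraries. The deposited table holds read counts per transcript row. GRCm38 and mm10 are the builds in the submitters' processing notes. How reads were aligned and counted was not given in the sources used here. For each comparison, the authors' deposited tables give a mean signal, log2 fold changes, a test score and p-values per gene, of which log2 changes and adjusted p-values were compared. Of 27382 transcript rows, 6378 had no reads; rows of a gene with identical counts were merged, leaving 15307 features, 62 of which had rows with different counts.

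Counts were tested with edgeR 4.0.16 (R 4.3.3): TMM scaling, filterByExpr (minimum count 10, total 15), glmQLFit and glmQLFTest with Benjamini-Hochberg adjustment over all genes of a fit (RNA 11271, footprints 11281, translational efficiency 10988). Each fit held all 3 treatments. The common biological coefficient of variation was 5.72% for RNA and 6.38% for footprints. Scripts were tested on simulated data. Alternatives were DESeq2 1.42.0, other scalings, no filter, a replicate block, the rows of the authors' tables, the compared treatments alone and leaving out each library. The 8 genes were always described, and up to 5 called genes with the smallest p from 1 list of 27 per comparison could be named, of which the text gives some. The genes and lists were chosen with earlier results of these data known. Same-numbered replicates correlated between -0.23 and 0.28 across treatments, so the numbers were not taken to pair them.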

Additional observations from a re-analysis of the deposited data

How the results depend on the processing

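The 72 values of the 8 genes were recomputed under 14 or 15 alternatives each, 1032 values in all. Of these, 949 kept their direction and their side of the threshold, 26 lost the call, 15 gained one and 42 changed sign. Of the 42, 4 were called in the main or the alternative fit and 38 in neither; 11 came from scaling by library totals without TMM and 31 from leaving out a library.

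Under library totals the 4 with a call were Odc1 RNA with Rapalink-1 against DMSO (-0.025), Oaz1 footprints against DMSO (0.042) and against rapamycin (0.0041), and Oaz1 translational efficiency against rapamycin (0.30). The other 7 were, for Rapalink-1 against rapamycin, Srm RNA (-0.098), Sat1 RNA (-0.126), Oaz2 footprints (0.185) and Amd1 efficiency (0.208), and for rapamycin against DMSO, Amd1 footprints (0.0136), Oaz1 footprints (0.0383) and Sms efficiency (0.0142).

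With a library left out, the values that changed sign were uncalled and lay near 0. For Rapalink-1 against DMSO they ranged from -0.0773 to 0.0354 for Srm RNA, -0.0440 to 0.0195 for Sms RNA, -0.0641 to 0.117 for Oaz2 footprints, -0.0357 to 0.164 for Azin1 footprints and -0.0582 to 0.0820 for Oaz1 efficiency. For rapamycin against DMSO they ranged in footprints from -0.108 to 0.0279 for Amd1, -0.0174 to 0.0260 for Sms, -0.120 to 0.0438 for Oaz1 and -0.0246 to 0.157 for Oaz2, and in efficiency from -0.0921 to 0.0194 for Sms, -0.0331 to 0.107 for Oaz1 and -0.0172 to 0.164 for Azin1. For Rapalink-1 against rapamycin they ranged from -0.0222 to 0.0903 for Srm RNA, -0.0308 to 0.0904 for Sat1 RNA, -0.115 to 0.0275 for Oaz2 footprints and -0.0689 to 0.0585 for Oaz1 efficiency.

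Scaling by library totals moved the median of all genes to -0.13 in RNA, 0.28 in footprints and 0.43 in translational efficiency for Rapalink-1 against DMSO, and to -0.14, 0.23 and 0.37 against rapamycin. It also moved the split of called genes. For Rapalink-1 against DMSO, RNA had 1123 higher and 3731 lower (2182 and 2123 with TMM), footprints 5400 and 1587 (2896 and 3161) and efficiency 5563 and 841 (2455 and 2182). For rapamycin against DMSO, footprints had 1391 and 654 (987 and 1060) and efficiency 930 and 846 (716 and 1082). For Rapalink-1 against rapamycin, RNA had 1056 and 3963 (2213 and 2422), footprints 4979 and 1830 (2870 and 3119) and efficiency 5179 and 1196 (2873 and 2631).

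Leaving out 1 library at a time gave 3 to 5 of the 8 genes called in RNA with Rapalink-1 against DMSO, the lowest without Rapalink-1 replicate 3. It gave 0 to 1 in footprints and 1 to 2 in translational efficiency with rapamycin against DMSO, the latter count also being 2 under library totals. The other counts of called genes stayed within 1.5 times under the alternatives run. The replicate numbers were not shown to pair the samples. With the replicate block, and with a block for the lysate shared by RNA and footprints, the 1 call lost among the 8 genes was Oaz2 translational efficiency with Rapalink-1 against DMSO (0.39 in both, adjusted p = 0.053 and 0.057). The cause of these shifts was not tested. Depth limits Sat1 footprints, with 23 to 97 reads a library.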
